A study of Mus musculus with 8 samples.

Results

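miR-21a was followed through embryonic mouse footpad skin, the hairless skin in which eccrine sweat glands form, by both arms of its hairpin: mmu-miR-21a-5p, the guide strand, and mmu-miR-21a-3p, the passenger strand (miR-21a-5p and miR-21a-3p from here on). The members were all array probes annotated to either arm, which are 2 of 1881 mouse miRNAs and 6 of 4415 miRNA probes on the array. Dicer conditional knockout (cKO) embryos on a C57BL6 background at embryonic days E16.5 and E17.5 were compared with wild-type embryos of the same background and days. Each of the 4 groups had 2 single-colour Agilent miRNA arrays, and each array received RNA of footpad skin pooled from 3 to 5 embryos. The labels do not name the Cre driver or the cells in which Dicer was deleted. The array holds no probe for Dicer mRNA, so the extent of the deletion is unknown here.

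miRNA precursors are cut out of a primary transcript by the nuclear nuclease Drosha, and the resulting hairpin is cut by Dicer into a short duplex, of which a single strand usually enters an Argonaute protein. Bases 2 to 8 of that strand, the seed, pair with target mRNAs. miR-21 is abundant in many mammalian tissues, in both epithelial and mesenchymal cells. In skin it is known for its increase in wounds, in psoriatic epidermis and in skin tumours, and in fibroblasts for its induction by TGF-beta, and Pdcd4 is a known target.

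Both arms come from a 92-base hairpin at chr11:86584067-86584158 on the minus strand (RefSeq, GRCm38.p6), within the bounds of Vmp1, which encodes a membrane protein of autophagy. The hairpin is shown with the arms in capitals, to place both probes' targets on it.
Mir21a hairpin: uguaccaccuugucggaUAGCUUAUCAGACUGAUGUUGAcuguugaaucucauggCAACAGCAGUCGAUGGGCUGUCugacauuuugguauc
The arms and the paralogs of the 5p arm are shown with their seeds in capitals. miR-21a-5p lies at chr11:86584120-86584141 and miR-21a-3p at chr11:86584082-86584103, while miR-21b is encoded on chromosome 3 and miR-21c on chromosome 8.
miR-21a-5p: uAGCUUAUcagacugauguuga
miR-21a-3p: cAACAGCAgucgaugggcuguc
miR-21b: uAGUUUAUcagacugauauuucc
miR-21c: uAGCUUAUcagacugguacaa
Counted from 1 at the 5′ end of miR-21a-5p, miR-21b differs at C4U, G18A, G21U and A22C, so that 18 of 22 bases are the same and the seed differs. miR-21c differs at A16G, G18A, U19C, U20A and G21A, so that 16 of 21 bases are the same and the seed AGCUUAU is shared. No other mature miRNA of the RefSeq table has that seed, and AACAGCA was the seed of miR-21a-3p alone.

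The array reads miR-21a-5p with 2 probes and miR-21a-3p with 4, each complementary to the 3′ end of its mature strand. The longest probe of each arm is shown, because it carries that arm's values below.
miR-21a-5p probe, 20 bases: tcaacatcagtctgataagc
miR-21a-3p probe, 15 bases: gacagcccatcgact
The probes were placed on the arms by sequence. The mm9 positions that the file gives for them run in the opposite order along the chromosome to the arms in RefSeq, and are not used here. The 20-base probe covers bases 3 to 22 of miR-21a-5p, and a 19-base probe covers bases 4 to 22. The 15-base probe covers bases 8 to 22 of miR-21a-3p and so holds only the last base of its seed, and the shorter ones begin at bases 9, 10 and 11. Each 5p probe had 15 spots per array, against 8, 8, 7 and 7 for the 3p probes of 12, 13, 14 and 15 bases. A Dicer product and an uncut hairpin share these bases, and their signals were not told apart.

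The 2 arms differed in whether they could be read at all. All 120 spots of each 5p probe, 15 on each of 8 arrays, were well above background. Of the 240 spots of the 4 miR-21a-3p probes, 1 was well above background. miR-21a-5p was therefore one of the 385 miRNAs tested (those above background on both arrays of some group) and one of the 261 detected on all 8 arrays, whereas miR-21a-3p was not tested. Among 723 hairpins with both arms on the array, 49 had both arms tested, 105 only the 5p arm, as miR-21a did, 89 only the 3p arm and 480 neither.

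Before scaling, the 20-base miR-21a-5p probe gave signals of 403 and 376 in cKO footpads at E16.5, against 708 and 453 in wild-type footpads of that day (arbitrary linear units). At E17.5 the signals were 622 and 607 in cKO footpads, against 905 and 942 in wild-type footpads. Both cKO arrays lay below both wild-type arrays on each day, and the E16.5 wild-type arrays stood furthest apart of any pair. The 19-base probe gave the same order, with 263 and 253 in cKO against 452 and 305 in wild type at E16.5, and 400 and 387 in cKO against 562 and 597 in wild type at E17.5. The coefficient of variation between spots of a probe on an array was 2.39% to 12.5%. The arrays themselves differed in brightness: the 75th percentile over probes that all 8 arrays detected was 288 and 288 in cKO against 398 and 284 in wild type at E16.5, and 408 and 375 in cKO against 503 and 521 in wild type at E17.5. Each array was divided by that percentile.

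On the resulting log2 scale miR-21a-5p stood at 0.49 and 0.38 in cKO footpads at E16.5, against 0.83 and 0.67 in wild-type footpads. At E17.5 it stood at 0.61 and 0.69 in cKO footpads, against 0.85 and 0.85 in wild-type footpads. The genotypes did not overlap on either day. Across days they did: the higher cKO array at E17.5, at 0.69, was above the lower wild-type array at E16.5, at 0.67. Non-overlap of 2 against 2 arrays is given here as a description. Between the genotypes 50.9% of all miRNAs tested passed at E16.5 and 46.2% at E17.5 (limma, adjusted p under 0.05). The group means from lowest to highest were 0.44 ± 0.074 in cKO at E16.5, 0.65 ± 0.060 in cKO at E17.5, 0.75 ± 0.11 in wild type at E16.5 and 0.85 ± 0.0041 in wild type at E17.5 (SD, n = 2 each). The neighbours cKO at E17.5 and wild type at E16.5 overlapped and so did not differ beyond their spread. Before scaling, both cKO arrays of E17.5 lay between the wild-type arrays of E16.5.

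**Figure D1:**
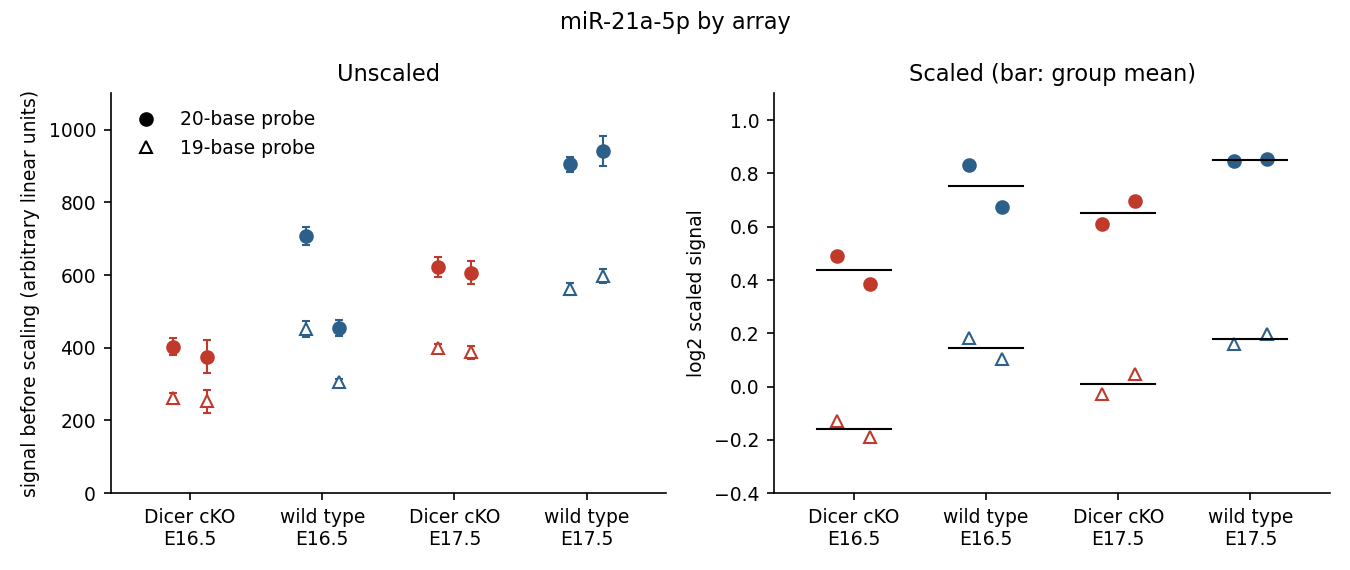
Signal of the 20-base (filled circles) and 19-base (open triangles) miR-21a-5p probes on each of the 8 arrays, cKO in red and wild type in blue, before scaling (left, linear units, error bars are the SD between spots) and after scaling (right, log2, bars are group means). On each day both cKO arrays sit below both wild-type arrays for either probe, and the scaled 20-base values run between 0.38 and 0.85.

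miR-21a-5p was lower in cKO footpads than in wild-type footpads, by a small amount. Over both days its log2 change was −0.26 ± 0.047 (SE; 95% confidence interval −0.38 to −0.14), a 1.20-fold lower level (limma, adjusted p = 0.00736). At E16.5 the change was −0.32 ± 0.067 (limma, adjusted p = 0.0171, 1.25-fold lower). At E17.5 it was −0.20 ± 0.067 with an interval of −0.37 to −0.03, and it did not pass the test (limma, adjusted p = 0.0636). Without wild-type replicate 1 of E16.5 the E16.5 change was −0.24 and did not pass (limma, adjusted p = 0.0544), and the E17.5 change passed under 9 of 18 alternative settings. In these data a call by itself was common: 60.5% of the 385 miRNAs tested passed over both days, 14.5% of them as lower. At E16.5 50.9% passed, 15.1% as lower, and at E17.5 46.2% passed, 10.1% as lower. As this is bulk tissue, fewer cells that hold miR-21a-5p and less miR-21a-5p per cell cannot be told apart. A test that uses the 8 values of miR-21a-5p alone, a two-sided exact permutation test of 4 cKO against 4 wild-type arrays, gave p = 0.0571 for the scaled values (0.114 after adjustment over 4 such tests, where the smallest possible p is 0.0286). Within day the exact permutation p was 0.0556, the smallest that the 36 arrangements allow. For the unscaled log2 signal the difference was −0.56 (exact permutation p = 0.114, adjusted 0.152). Group and slide column coincide on the single slide used, so that column and group cannot be told apart. Replicate number coincides with slide row, and each row holds 1 array of every group. Within row 1 the cKO array minus the wild-type array was −0.29 at E16.5 and −0.16 at E17.5, and within row 2 −0.34 and −0.24. With the row as a block the change over both days was −0.26 (limma, adjusted p = 0.0137).

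The 2 probes of miR-21a-5p moved alike. Over the 8 arrays the 20-base signal exceeded the 19-base signal by 0.62 ± 0.033 log2 units in cKO footpads and 0.64 ± 0.050 in wild-type footpads (SD, n = 4 each). The difference of −0.02 between genotypes did not pass (two-sided exact permutation test, p = 0.457).

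The direction of the miR-21a-5p change did not hang on how the arrays were scaled, but its size did. Under 6 scalings the change over both days ran from −0.64 with positive control probes to −0.26 with the 75th percentile of detected probes used here. It was below 0 under all 6 and passed limma's test under 5, the exception being the 75th percentile of all probes (−0.54, adjusted p = 0.0675). The median of all miRNAs tested moved with the scaling. It was 0.17 over both days, 0.19 at E16.5 and 0.13 at E17.5 under the scaling used here, and −0.15 over both days with positive control probes. Relative to that median miR-21a-5p changed by −0.42 over both days, and by −0.49 to −0.37 across the 6 scalings. At E16.5 the change relative to the median was −0.50 and at E17.5 −0.33. Of the 385 miRNAs tested, 37 (9.61%) had a change over both days below that of miR-21a-5p, 43 (11.2%) at E16.5 and 42 (10.9%) at E17.5.

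**Figure D2:**
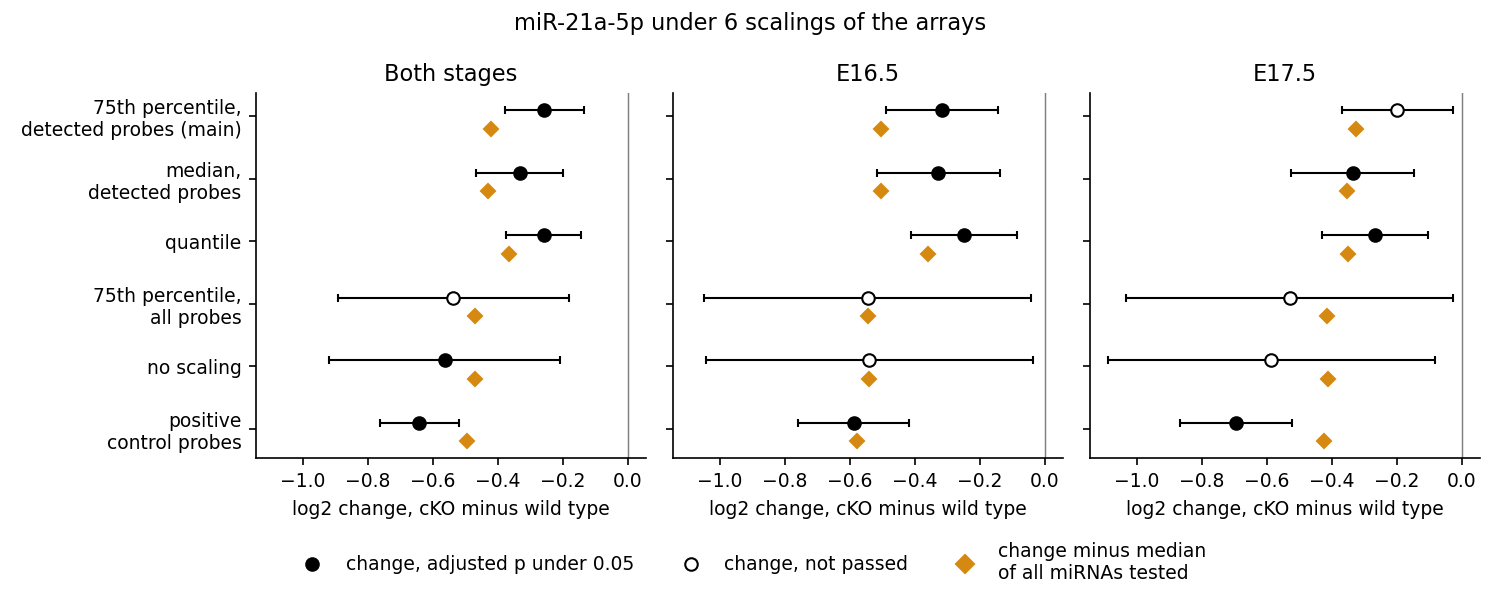
Log2 change of miR-21a-5p, cKO minus wild type, under 6 scalings of the arrays (rows), over both days and at each day (panels). Circles with 95% confidence intervals are the change, filled where the adjusted p was under 0.05, and orange diamonds are the change minus the median of all miRNAs tested. Every circle lies below 0, between −0.69 and −0.20, and the diamonds over both days keep between −0.49 and −0.37.

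Between the days the difference of miR-21a-5p did not pass the test in either genotype, and its size depended on the scaling and on single arrays. In cKO footpads its log2 change, E17.5 minus E16.5, was 0.22 ± 0.067 (limma, adjusted p = 0.0584), where 35.6% of the miRNAs tested passed, 15.3% as higher. It passed under 5 of 18 alternative settings, and without wild-type replicate 1 of E16.5 (adjusted p = 0.0450). It ran to 0.66 without scaling, and was 0.11 with Agilent's total signal and 0.12 without cKO replicate 2 of E16.5. In wild-type footpads it was 0.10 ± 0.067 (limma, adjusted p = 0.376), where 14.8% passed, 4.16% as higher. Without wild-type replicate 2 of E16.5 it was −0.0020, and it passed at 0.70 without scaling and at 0.34 with positive control probes. The genotype effect at E17.5 minus that at E16.5 was 0.12 ± 0.095 with an interval of −0.13 to 0.36 (limma, adjusted p = 0.458), and 1.56% of miRNAs passed that test. Its sign turned under 4 of the 6 scalings, and the 2 days are not shown to differ in the effect.

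miRNAs known from skin epithelium and from dermal mesenchyme give 2 scales against which miR-21a-5p can be read. All 11 skin epithelium miRNAs (the miR-200 family, miR-203, miR-205 and the miR-183 cluster) fell in cKO footpads over both days. Of all miRNAs tested, 14.5% fell. The median log2 change of the 11 was −2.19, beside 0.17 over all miRNAs tested. The 11 also fell under each of the 6 scalings. The highest change between days in cKO among the 11 was exactly 0, as for a member at the floor on every cKO array. Such a member was tested through its wild-type signal alone. Its direction was therefore set by the filter, and the size of its fall is a lower bound. Of the pair with the highest mean signal, miR-203-3p, known to restrain p63 in keratinocytes, averaged 0.63 ± 0.053 in cKO against 3.52 ± 0.0097 in wild type at E16.5, and 0.22 ± 0.34 in cKO against 3.70 ± 0.13 in wild type at E17.5 (log2 scaled signal, SD, n = 2 each). miR-205-5p, an epithelial miRNA of skin progenitors, averaged 0.71 ± 0.10 in cKO against 3.54 ± 0.059 in wild type at E16.5, and 0.27 ± 0.26 in cKO against 3.67 ± 0.082 in wild type at E17.5. The smallest change among the 11 was −1.41, so that each of them had a lower change than miR-21a-5p.

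Of 9 dermal mesenchyme and fibroblast miRNAs, 8 rose over both days and 1 did not pass, where 46% of all miRNAs tested rose, and their median was 0.34 beside the 0.17 of all miRNAs tested. Their direction depended on the scaling: without scaling and with the 75th percentile of all probes 0 of the 9 passed, and with positive control probes 2 fell and the median was −0.05. The one with the highest mean signal, miR-199a-3p, a fibroblast miRNA, averaged 4.74 ± 0.032 in cKO against 4.43 ± 0.13 in wild type at E16.5, and 4.82 ± 0.0020 in cKO against 4.33 ± 0.072 in wild type at E17.5. Its partner arm miR-199a-5p had a log2 change of 0.41 over both days (limma, adjusted p = 3.23e-04). Under each of the 6 scalings 0 of the 9 had a change below that of miR-21a-5p. The change of miR-21a-5p thus lay between those of the 2 lists, nearer to the median of the mesenchymal one. Whether the share of either tissue in the RNA moved the value of miR-21a-5p was not tested.

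The difference between miR-21a-5p and the mean of a list on the same array does not depend on a factor that scales the whole array, apart from values at the floor. Against the skin epithelium mean, miR-21a-5p stood at 3.08 and 2.96 log2 units in cKO against 1.13 and 1.02 in wild type at E16.5, and at 3.55 and 3.32 in cKO against 1.13 and 1.03 in wild type at E17.5. Against the dermal mesenchyme mean it stood at −0.56 and −0.67 in cKO against −0.05 and −0.15 in wild type at E16.5, and at −0.51 and −0.46 in cKO against 0.10 and 0.12 in wild type at E17.5. Each cKO array was above each wild-type array on the epithelial scale and below each on the mesenchymal scale. The genotypes differed by 2.15 and −0.55 log2 units on these scales, which are given as a description since the epithelial list was known to fall.

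Other tissues of the footpad were read through lists of the same kind over both days. Of the miRNAs tested, 2 of 2 endothelial and 5 of 5 skeletal muscle miRNAs rose, and so did 4 of 7 of blood and immune cells, 1 of 4 of cartilage and 2 of 3 of nerve and glia, while none of these fell and 46% of all miRNAs tested rose. On lists this small the endothelial count, from 2 arms of a single hairpin, and the counts of the last 3 are not set apart from that share. The skeletal muscle count was not tested against it. The list medians were 0.44, 0.32, 0.21, 0.16 and 0.21, beside 0.17 for all miRNAs tested. These increases depended on the scaling: none passed as higher without scaling, with the 75th percentile of all probes or with positive control probes. With positive control probes 1 each of the blood, cartilage, nerve and skeletal muscle lists fell, and with quantile normalization 1 of the nerve list fell. None of the miRNAs in these lists had a change below that of miR-21a-5p under the scaling used here.

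**Figure D3:**
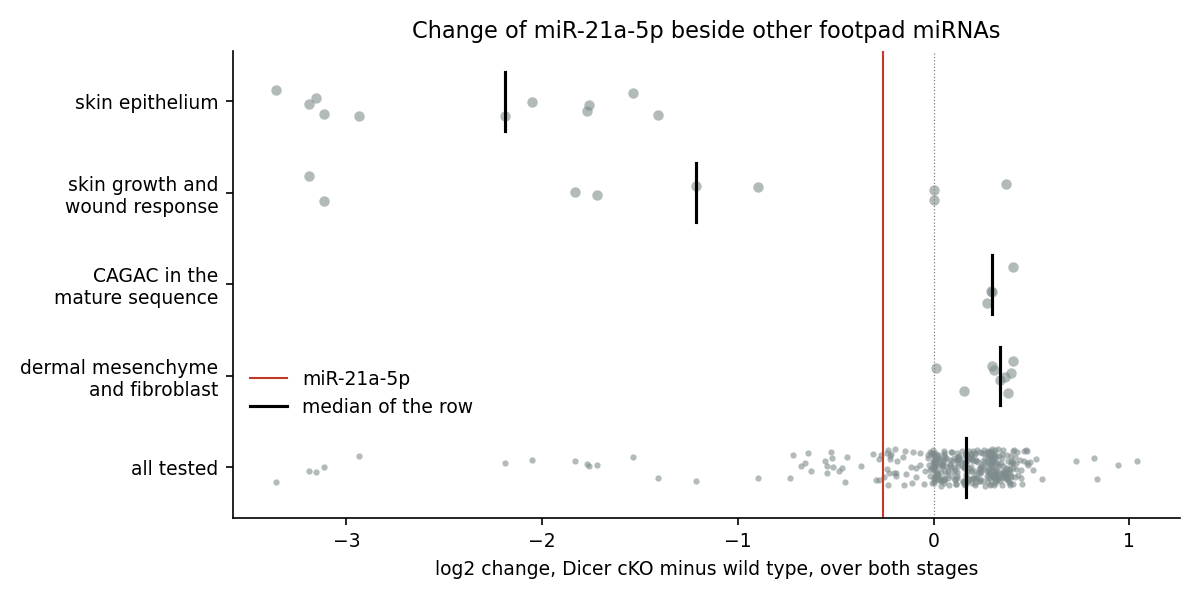
Log2 change over both days, cKO minus wild type, of the miRNAs tested in each list (grey points, black bar for the median of the row), with miR-21a-5p as a red line at −0.26. All 11 skin epithelium points lie left of the line, all 9 dermal mesenchyme points lie right of it, and the bar of all 385 miRNAs tested stands at 0.17.

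miR-21 belongs to a set of miRNAs known from skin growth and wound repair, of which 10 others were on the array and 9 were tested. Over both days 6 of the 9 fell and 1 rose, while 2 were at the floor on all 8 arrays and could not pass. Of all miRNAs tested, 14.5% fell and 46% rose. The median was −1.21, and these counts include the epithelial miR-203-3p (−3.19) and miR-205-5p (−3.12). The 6 fell under all 6 scalings, and each of them had a lower change than miR-21a-5p. They include miR-31-5p, which was tested through its wild-type signal alone, so that the filter set its direction. They also include miR-221-3p, whose cKO values at E16.5 were at the floor. miR-34a-5p, which p53 induces, stood at −2.46 and −2.46 in cKO against −0.85 and −0.87 in wild type at E16.5, and at −2.74 and −2.52 in cKO against −0.81 and −0.77 in wild type at E17.5, a log2 change of −1.72. miR-210-3p, which low oxygen induces, had a change of −0.90, the nearest to miR-21a-5p among the 6.

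miR-31-5p, a miRNA of growing keratinocytes, was not well above background on either cKO array at E16.5. It was above background on 1 of 2 cKO arrays at E17.5 and on all 4 wild-type arrays. At E16.5 it was at least 2.56-fold lower in cKO. It entered the test through the wild-type groups alone, and its cKO values at E16.5 were at or near the floor. Its limma call is therefore no separate support for the fall. miR-221-3p, a regulator of the cell cycle inhibitor p27, was not well above background on the cKO arrays at E16.5 and was at least 1.73-fold lower there. Its limma test (adjusted p = 1.57e-04) used cKO values at the floor on both of these arrays. miR-146a-5p, a miRNA of innate immune signalling, changed by 0.37 and passed, but it passed under 3 of the 6 scalings only, and under 1 its change was below 0. Its values lay close above the floor, between −4.15 and −3.59, and it was detected on 1 of 2 arrays in each E16.5 group. miR-132-3p and miR-222-3p were at the floor on all 8 arrays, so that no change of them could be measured. miR-132-3p was detected on 1 wild-type array at E16.5, and at E17.5 on 2 wild-type arrays and 1 cKO array. miR-222-3p was detected on both wild-type arrays at E17.5 and on no other array. miR-155-5p was detected on none. Among the wound-related miRNAs that fell, miR-21a-5p therefore had the smallest log2 change.

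miR-21a-5p also carries the bases CAGAC, described in human cells as the motif by which SMAD proteins bind some primary miRNA transcripts and speed their processing. It is shown in capitals, with the 3 brightest other tested miRNAs that hold it.
miR-21a-5p: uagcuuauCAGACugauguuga
miR-3968: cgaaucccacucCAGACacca
miR-199a-5p: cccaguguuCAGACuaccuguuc
miR-214-3p: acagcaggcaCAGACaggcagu
The motif was sought as these letters on the mature strand only. It occurs in 28 of 1679 mature miRNAs of the RefSeq table (1.67%), and beside miR-21a-5p 4 of them were tested. miR-3968 changed over both days by 0.27 and miR-214-3p, a fibroblast miRNA, by 0.30 (limma, adjusted p = 0.0147 and 0.00132). The remaining one, miR-7018-5p, was named after its value was seen and changed by 0.30. miR-199a-5p and miR-214-3p are also members of the dermal mesenchyme list above, and so were already counted there. With miR-199a-5p all 4 passed as higher, while 46% of all miRNAs tested did. This depended on the scaling: 0 passed in either direction without scaling, with the 75th percentile of all probes or with positive control probes, and with quantile normalization 2 rose and 1 fell. The change of miR-3968 was below 0 under 4 of the 6 scalings and passed as lower under 1 of them, and that of miR-214-3p was below 0 under 2. None had a change below that of miR-21a-5p under any of the 6 scalings.

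The array also holds probes for miRNAs that share the seed or the name of miR-21. Probes for miR-21b, miR-21c and miR-590-5p, whose probe complement begins with the same seed, were detected on 0 of 8 arrays. Of the 240 spots of each, 1, 2 and 1 were well above background. Signal from the seed family was therefore measurable from miR-21a-5p alone, and cross-hybridisation between the paralogs' probes was not tested.

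The miRNAs whose profile over the 8 arrays was most like that of miR-21a-5p were sought among the 260 others detected on all arrays, by the root mean square difference of log2 values centred on each miRNA's own mean. They were miR-24-3p (0.035), let-7d-5p (0.035), let-7g-5p (0.050), let-7i-5p (0.062) and miR-27b-3p (0.068). Of these, miR-24-3p stood at 1.41 and 1.35 in cKO against 1.73 and 1.66 in wild type at E16.5, and at 1.55 and 1.63 in cKO against 1.72 and 1.80 in wild type at E17.5. Since the 5 were picked on these same arrays for a profile like that of miR-21a-5p, their direction follows from the choice, and their values are a description. Their log2 changes over both days were −0.28 for let-7d-5p, −0.24 for miR-24-3p, −0.22 for let-7i-5p, −0.19 for let-7g-5p and −0.14 for miR-27b-3p, beside −0.26 for miR-21a-5p. At E17.5 they were −0.19 for let-7d-5p, −0.17 for miR-24-3p, −0.09 for both let-7g-5p and let-7i-5p and −0.03 for miR-27b-3p, beside −0.20 for miR-21a-5p.

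**Figure D4:**
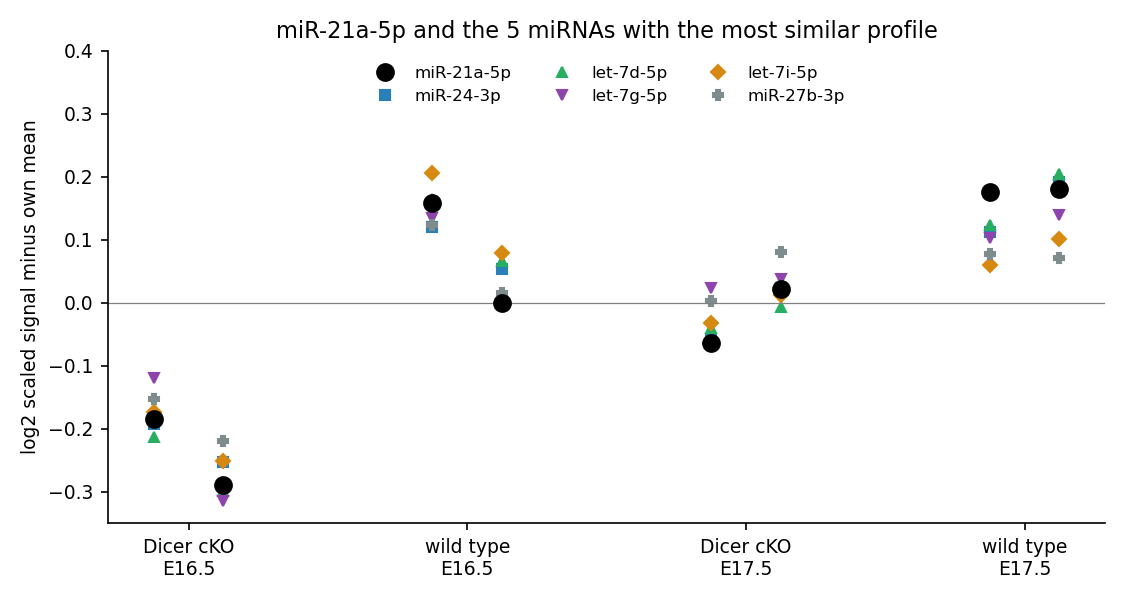
Log2 scaled signal minus each miRNA's own mean over the 8 arrays, for miR-21a-5p (large black circles) and the 5 miRNAs nearest to it in profile, by group and array. All 6 miRNAs are lowest in the cKO arrays of E16.5, and the root mean square differences from miR-21a-5p run from 0.035 to 0.068.

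miR-21a-3p stayed near the array's background in every group. Its 15-base probe gave 6.25 and 7.40 in cKO footpads at E16.5, against 5.22 and 2.32 in wild-type footpads, and 9.99 and 13.0 in cKO footpads at E17.5, against 6.61 and 5.74 in wild-type footpads (unscaled linear units). On this probe the genotypes did not overlap on either day, and the E17.5 cKO pair was the highest. On the 14-base probe they did not overlap on either day, whereas on the 12-base and 13-base probes they overlapped on both days. For comparison, the median of the 1000 negative control spots was 3.64 and 2.65 in cKO against 4.24 and 4.57 in wild type at E16.5, and 4.66 and 4.55 in cKO against 4.35 and 4.45 in wild type at E17.5. The highest negative control sequence, outlier spots kept, averaged 5.37 and 25.4 in cKO against 5.50 and 14.2 in wild type at E16.5. At E17.5 it averaged 6.87 and 8.48 in cKO against 9.98 and 8.50 in wild type. The 15-base probe exceeded that sequence on both cKO arrays of E17.5 and on cKO replicate 1 of E16.5. On every other array it lay below. The dimmest probe counted as detected on any array gave 13.7, so the 15-base probe lay below the detected range everywhere. The mean was 9.16 ± 3.00 in cKO footpads and 4.97 ± 1.86 in wild-type footpads (SD, n = 4 each), a difference of 4.19 that did not pass (two-sided exact permutation test, p = 0.0571, adjusted 0.114). The wild-type array at 2.32 had an outlier spot removed. With all spots kept, as chosen after seeing the data, wild-type footpads averaged 5.65 ± 0.70, the difference was 3.51 and the exact permutation p was again 0.0571. At this brightness no fold change of miR-21a-3p between the genotypes, and no ratio between the arms, could be given.

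**Figure D5:**
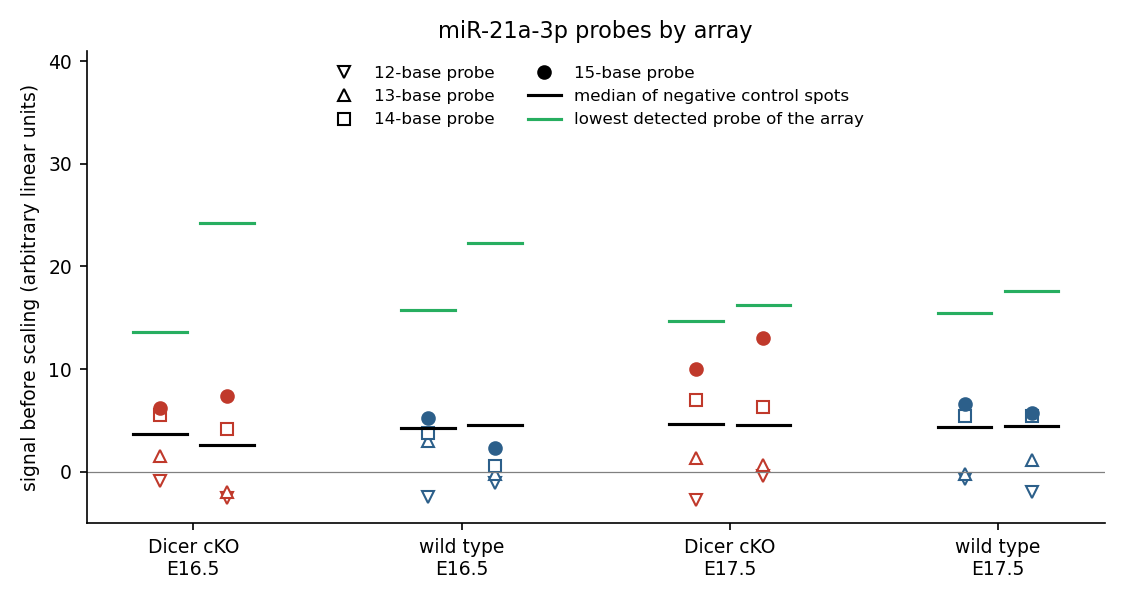
Unscaled signal of the 4 miR-21a-3p probes (12 to 15 bases, the 15-base probe filled) on each array, cKO in red and wild type in blue, with the median of the negative control spots (black) and the dimmest detected probe of the array (green). All points lie below the green lines, and the 15-base probe is highest on the cKO arrays of E17.5, at 9.99 and 13.0.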

How the data were processed

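Total RNA was labelled with Cy3 and hybridised to Agilent mouse miRNA arrays, per the labels' protocols. The authors' deposited scanner files hold background-subtracted fluorescence intensity in linear units for 56430 miRNA spots per array, from Agilent Feature Extraction, per the file headers; no scaling between arrays had been applied. The deposited value table equalled these intensities in all spots above 0 within 0.02 and holds 1 constant per array (its column median: 2.90, 5.12, 3.25 and 4.69 at E16.5 and 3.07, 3.75, 3.37 and 3.60 at E17.5, cKO pair before wild-type pair) for the 42.2% to 45.1% of spots at or below 0. It is linear, uncentred and unscaled, and served as an alternative. Probe sequences are the files' own and miRNA sequences RefSeq's, with 1608 of the 1881 miRNAs matched by name.

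Outlier spots (2.84% to 6.02% per array) were left out, no spot was saturated (0), and spots of a probe were averaged. Each array's signals were divided by their 75th percentile over the 474 probes that all 8 arrays detected, values under a floor (−4.24 on the log2 scale) were raised to it, and log2 was taken. A probe was detected when over 50% of its spots were well above background, and a miRNA took its probe of highest mean. Between 279 and 384 miRNAs were detected per array, and replicates correlated across miRNAs at 0.997 to 0.999.

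The 385 miRNAs tested were fitted with 4 group means in limma 3.58.1 (R 4.3.3, eBayes with a trend), with Benjamini-Hochberg adjustment over all of them in each of 6 contrasts and a threshold of 0.05. Residual degrees of freedom were 4. The fit was tested on simulated data. For a bound ("at least"), a group not above background takes, array by array, the lowest signal of any detected probe or its own signal if higher. The p-values measure the spread between arrays of a group, in which differences of pool, hybridisation and slide row are mixed. limma moderates that spread over miRNAs, and 2 arrays per group limit the precision. Named miRNAs were the arms, seed sharers and paralogs, the wound list, the brightest holders of CAGAC, the 5 nearest profiles and the 2 brightest members of the epithelial and mesenchymal lists. The members and lists were chosen with earlier results of these data known.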

Additional observations from a re-analysis of the deposited data

Results flagged for a closer look

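The scanner software writes its own detection mark for each miRNA, which the comparisons above do not use. For miR-21a-3p that mark was set on 2 of 2 cKO arrays at E17.5 and on 0 of the other 6 arrays, the wild-type arrays included. The software's total signal for miR-21a-3p on those 2 arrays was 1.36 and 1.77. On both arrays of cKO at E17.5 and nowhere else, 6 of 1881 miRNAs carried the mark, against 4 of 1881 for wild type at E17.5. For each E16.5 group that count was 0. The mark is the more permissive rule on both days. In cKO it was set on both arrays for 342 miRNAs at E16.5 and 419 at E17.5, where 281 and 351 were detected. In wild type it was set for 344 and 426, where 279 and 370 were detected. At E17.5, 37 miRNAs of cKO and 37 of wild type carried it on both arrays without being detected there by their spots. At E16.5 these were 4 and 2.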

How the results depend on the processing

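Over both days miR-21a-5p was below 0 under all 17 alternatives (−0.64 to −0.24) and passed in 16. With the 75th percentile of all probes it was −0.54 over both days and −0.55 at E16.5, and without scaling −0.54 at E16.5, none of which passed. At E17.5 it passed under median scaling (−0.34), quantile normalization (−0.27), positive control probes (−0.69), normexp (−0.20), the mean of both probes (−0.18), the 19-base probe (−0.17), only miRNAs detected on all 8 arrays (−0.20), no floor (−0.20) and, chosen after seeing the data, Agilent's total signal (−0.24). The stage difference of the effect turned to −0.046 without scaling, −0.0068 with the median, −0.018 with quantile normalization, −0.11 with control probes and −0.0094 with Agilent's total signal. E17.5 minus E16.5 in cKO passed with normexp (0.21), the mean of both probes (0.19), the 19-base probe (0.17), the all-8 filter (0.22) and no floor (0.22). In wild type it passed without scaling (0.70) and with control probes (0.34). The cause was not tested.

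Leaving out 1 array at a time gave −0.32 to −0.22 over both days (all 8 passed), −0.40 to −0.24 at E16.5 (not passed without wild-type replicate 1 of E16.5, adjusted p = 0.0544), −0.25 to −0.16 at E17.5 (passed without cKO replicate 2 or wild-type replicate 1 or 2 of E16.5), 0.04 to 0.17 for the stage difference, 0.12 to 0.27 in cKO between days (passed without wild-type replicate 1 of E16.5) and −0.0020 to 0.18 in wild type, negative without replicate 2 of E16.5. A lone array was assumed to vary like the others.

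The number of miRNAs called over both days was 233 (177 higher, 56 lower), 63 without scaling (6 and 57), 50 with the 75th percentile of all probes (6 and 44), 178 with control probes (9 and 169), 192 with the median (129 and 63) and 174 to 225 with 1 array left out. At E16.5 it was 196 (21 to 229 under the alternatives, 113 to 189 with 1 array left out), at E17.5 178 (36 to 203, and 96 to 175), for the stage difference 6 (0 to 24, and 4 to 27), between days in cKO 137 (8 to 177, and 16 to 138) and in wild type 57 (5 to 192, and 9 to 60). At E16.5 138 were higher and 58 lower, against 4 and 17 without scaling, 6 and 18 with the 75th percentile of all probes and 9 and 96 with control probes. At E17.5 139 were higher and 39 lower, against 4 and 47, 4 and 32, and 3 and 200 under these, and 71 and 53 with the median. Between days in cKO 59 were higher and 78 lower, against 23 and 5 without scaling, 2 and 6 with all probes, 31 and 74 with control probes and 108 and 67 with quantile normalization. In wild type 16 were higher and 41 lower, against 188 and 4, 13 and 4, 102 and 8, and 22 and 22 under these, and 27 and 11 with the median.

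Equal replicate numbers share a slide row. Deviations of equally numbered arrays correlated at −0.14 to 0.28 over 6 pairs of groups, above 0.1 in 5. With the replicate block (slide row) 219 miRNAs were called over both days and miR-21a-5p changed by −0.26 (adjusted p = 0.0137), and no call of miR-21a-5p changed. The alternatives planned for miR-21a-3p and for the ratio of the arms were not run, since the 3p arm was not tested.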
